A study of Mus musculus with 15 samples.

Results

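The cytochrome P450 genes of the mouse were followed through the H3K4me3 islands of 15 livers. The 94 genes are the protein-coding genes of GENCODE M21 (mm10) whose symbols read Cyp, a number, a letter and a number, out of 21755 protein-coding genes on chromosomes 1 to 19 and X. In 5 of the 94 a further letter ends the symbol. The bile acid enzymes Cyp7a1, Cyp7b1, Cyp8b1 and Cyp27a1 were left out, and Cyp51 does not have a symbol of this form. An island is a stretch of windows with more H3K4me3 reads than chance gives, joined over small gaps by the peak caller. A gene was counted as marked in a library when an island lay within 1 kb of any of its transcription start sites (TSSs). The score of an island, summed over its windows by the authors, was used as the percentile of its rank within its own list, with 0 for a gene without an island.

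The samples were livers of 15 female C57BL/6 mice (C57BL/6J in the methods of the study) drawn from several litters, with 3 mice on each of 5 diets and 1 library per mouse. The diets were a standard diet ad libitum (SD), caloric restriction (CR), a high-fat diet ad libitum (HF), a diet with yellow corn (YD) and a diet with anthocyanin-rich purple corn from a near-isogenic line (RD). Feeding began at 3 months of age and lasted 10 months by the account of the study, and the labels give an age of 12 months. Chromatin was taken from sections of formalin-fixed, paraffin-embedded whole liver, so fewer cells of a type and less of the mark per cell cannot be told apart. No allele or agent other than the diet is named for any group.

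Cytochrome P450 enzymes are heme proteins that insert an oxygen atom into their substrates. Families CYP1 to CYP3 act mainly on drugs, plant compounds and steroids, family CYP4 oxidizes the ends of fatty acids, and the higher families make or break down steroid hormones, vitamin D, retinoic acid and cholesterol. The liver is the main site of the first 4 families, most of which stand in tandem gene clusters. H3K4me3, trimethylation of lysine 4 of histone H3, lies around the start of genes that are transcribed or ready to be, and is known to be broadest and most regular at promoters rich in the CpG dinucleotide.

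The lists held 7825 to 33752 islands, and 5589269 to 15449854 reads were recovered behind them. CR_3 and RD_2 had the longest lists. Hepatocyte markers were marked in 6 to 10 of 10 per library. Alb was among those with no island in some libraries and was marked in 8 of 15. The sinusoidal endothelial markers were marked in 0 to 6 of 6 in SD, CR and HF, with a summed score percentile of 0 to 329.6, and in 0 to 1 of 6 in YD and RD, with 0 to 55.85. Stellate cell markers were marked in 0 to 4 of 6 in SD, CR and HF and in 0 of 6 in corn. Kupffer markers were marked in 0 to 3 of 6 and cholangiocyte markers in 0 to 2 of 4, and Vsig4, Marco, Timd4, Krt19 and Epcam had no island in any library. CR_1, CR_2, HF_2, HF_3 and RD_1 were submitted under library names with PATChIP, and the other libraries under names with ChIP.

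The promoters are shown first, since most of these genes lack the CpG-rich start at which H3K4me3 is usually found. The 3 P450 genes marked in all 15 libraries were Cyp2e1, which oxidizes ethanol and acetone, Cyp2c29, a xenobiotic and arachidonic acid oxidase, and Cyp2d26 of the CYP2D cluster. Below, the 250 bases before the RefSeq start of each (GRCm38.p6) are set against those of 3 members with CpG-rich starts, Cyp2r1, the vitamin D 25-hydroxylase, Cyp20a1, an orphan P450, and Cyp4v3, a fatty acid hydroxylase. Capitals mark the dinucleotide CG, and each sequence reads 5′ to 3′ on the strand of its gene.
Cyp2e1: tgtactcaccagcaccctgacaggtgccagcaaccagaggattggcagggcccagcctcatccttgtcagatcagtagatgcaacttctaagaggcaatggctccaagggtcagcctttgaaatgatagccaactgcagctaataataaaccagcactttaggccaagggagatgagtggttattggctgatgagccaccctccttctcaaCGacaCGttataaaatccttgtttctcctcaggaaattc
Cyp2c29: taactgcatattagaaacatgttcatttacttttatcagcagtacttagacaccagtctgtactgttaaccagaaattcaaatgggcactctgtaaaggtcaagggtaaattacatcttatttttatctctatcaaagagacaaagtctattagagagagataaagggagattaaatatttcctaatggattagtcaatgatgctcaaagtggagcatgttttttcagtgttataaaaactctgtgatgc
Cyp2d26: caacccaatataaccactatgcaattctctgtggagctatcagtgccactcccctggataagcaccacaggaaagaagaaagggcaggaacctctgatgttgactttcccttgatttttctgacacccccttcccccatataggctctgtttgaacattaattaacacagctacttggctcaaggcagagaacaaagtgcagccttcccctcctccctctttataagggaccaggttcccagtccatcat
Cyp2r1: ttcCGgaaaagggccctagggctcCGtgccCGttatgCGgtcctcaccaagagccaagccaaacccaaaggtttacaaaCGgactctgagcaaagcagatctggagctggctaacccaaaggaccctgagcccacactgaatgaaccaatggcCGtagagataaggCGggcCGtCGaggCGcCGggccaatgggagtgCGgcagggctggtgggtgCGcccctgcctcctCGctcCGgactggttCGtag
Cyp20a1: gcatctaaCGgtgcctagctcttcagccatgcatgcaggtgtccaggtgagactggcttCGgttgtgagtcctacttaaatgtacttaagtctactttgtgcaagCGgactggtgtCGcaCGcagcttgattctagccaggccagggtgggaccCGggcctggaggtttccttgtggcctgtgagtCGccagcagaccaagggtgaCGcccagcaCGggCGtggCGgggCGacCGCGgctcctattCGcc
Cyp4v3: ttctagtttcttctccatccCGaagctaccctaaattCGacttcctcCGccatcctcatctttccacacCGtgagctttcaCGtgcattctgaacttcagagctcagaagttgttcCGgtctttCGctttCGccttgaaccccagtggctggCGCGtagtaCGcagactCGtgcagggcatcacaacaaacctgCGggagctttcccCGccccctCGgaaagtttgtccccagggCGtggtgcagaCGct

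These windows lie at chr7:140763569-140763818 on the plus strand for Cyp2e1, chr19:39286835-39287084 on the plus strand for Cyp2c29 and chr15:82794246-82794495 on the minus strand for Cyp2d26. The CpG-rich windows lie at chr7:114562973-114563222 on the minus strand for Cyp2r1, chr1:60343050-60343299 on the plus strand for Cyp20a1 and chr8:45333164-45333413 on the minus strand for Cyp4v3. The first 3 promoters held 2, 0 and 0 CG dinucleotides, and the other 3 held 16, 15 and 17. Since the first 3 were chosen for their marking in all 15 libraries, their breadth is not compared with that of the others, of which Cyp2r1 was marked in 7 libraries, Cyp20a1 in 8 and Cyp4v3 in 13.

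RefSeq promoters of 300 bases, from 250 before the start to 50 after it, were matched for 73 of the 94 genes, with 83 promoters in all. The median number of CG in the 250 bases before the start was 2.0 in P450 promoters and 6.0 in all 32851 promoters of the table. The letters TATAAA of the TATA box, on either strand and at any position of the 300 bases, stood in 39.8% of the P450 promoters and in 13.6% of all promoters. They were present in those of Cyp2e1, Cyp2c29 and Cyp2d26 and not found in those of Cyp2r1, Cyp20a1 and Cyp4v3. In the printed bases of Cyp2d26 they stand only on the opposite strand, read there as TTTATA. By marking, TATAAA stood in 50% of P450 promoters at 8 to 15 libraries, 36% at 1 to 7 and 37.5% at 0. The letters CAAAGTCCA, a form of the site of the liver factor HNF4, stood in 12.0% of the P450 promoters and in 0.475% of all. All 10 such genes belong to the CYP2C and CYP3A clusters, whose members are close copies of one another, and they include Cyp3a11 and Cyp2c70. The letters did not follow the marking. They stood in 11.1% of P450 promoters at 8 to 15 libraries, 12% at 1 to 7 and 12.5% at 0. The GC box, GGGCGG, stood in 20.5% of P450 promoters and in 35.7% of all. GCGTG, the core of the site bound by the aryl hydrocarbon receptor, stood in 19.3% and 32.4%. None of the P450 promoters held the HNF1 palindrome or the direct repeat DR1 in their full consensus, which stood in 0.00913% and 0.0396% of all promoters.

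Over 1000 bases around the first TSS, the ratio of observed to expected CpG had a median of 0.147 in the P450 genes and of 0.558 in protein-coding genes. It reached 0.6 in 8 of the 94 P450 genes and in 46.3% of protein-coding genes. The 8 are Cyp2r1, Cyp20a1, Cyp4v3, Cyp2u1, Cyp26a1, Cyp39a1, Cyp24a1 and Cyp46a1, the last a cholesterol hydroxylase of brain.

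**Figure D1:**
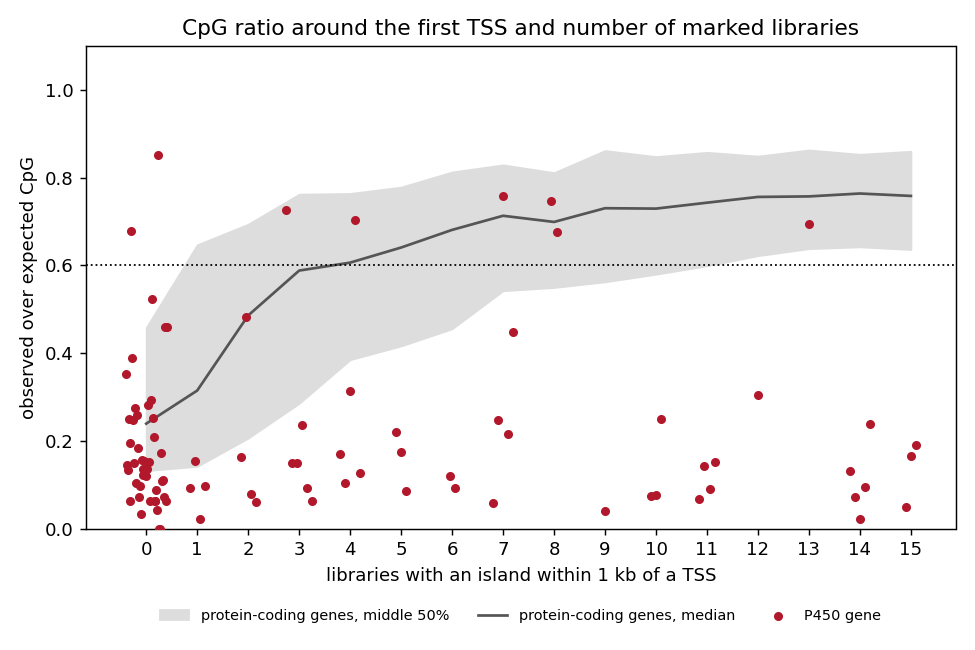
Ratio of observed to expected CpG in 1000 bases around the first TSS (y axis) against the number of libraries, 0 to 15, in which the gene had an island (x axis); red points are the 94 P450 genes, spread sideways within each number, the line is the median and the band the middle 50% of all protein-coding genes, and the dotted line marks 0.6. The median of protein-coding genes rises from 0.239 in genes with no island to 0.748 in those marked in 8 to 15 libraries, while that of P450 genes is 0.145 and 0.137.

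Of the 94 P450 genes, 49 were marked in at least 1 library and 45 in none, which is 47.9% against 40.04% of protein-coding genes. The number marked in at least 8 libraries was 20, or 21.3%, against 40.1% of protein-coding genes. In all 15 libraries, 3 P450 genes were marked, or 3.19%, against 9.46%. Among genes with a CpG ratio under 0.6 the order of the first share was turned, with 50% of 86 P450 genes and 37.1% of protein-coding genes marked in at least 1 library. In the same class 19.8% of P450 genes and 17.4% of protein-coding genes were marked in at least 8 libraries. Of the 8 CpG-rich P450 genes 6, or 75%, were marked in at least 1 library and 3, or 37.5%, in at least 8, while 66.3% of CpG-rich protein-coding genes were marked in at least 8. These shares carry no test, since the genes of a cluster are not independent.

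Reads of 50 bases cannot be placed in repeated sequence, which bears on close copies. Fewer than 50% of the 50-base words within 1 kb of the TSSs were unique in the genome for 5 members, Cyp2a4, Cyp3a41a, Cyp3a41b, Cyp4a12a and Cyp4a12b, and none of these 5 had an island. For the other 40 unmarked members at least 50% were unique, and for 28 of them at least 90%.

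The islands of P450 genes lay downstream of the start. Their centres had a median of 910.5 bp after the nearest TSS, against 217.5 bp for protein-coding genes and 324.5 bp for protein-coding genes with a CpG ratio under 0.6. The median was higher in the P450 genes than in both comparison sets in 15 of 15 libraries, with a range of 500.5 to 1220.5 bp against 180.5 to 320.5 bp for protein-coding genes. The islands reached 78 bp upstream and 1910 bp downstream in the median, against 708 and 1195 bp. A TSS lay inside 62.7% of the 351 islands of P450 genes and inside 84.4% of those of protein-coding genes. The islands thus began nearer the start and ran farther into the gene.

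**Figure D2:**
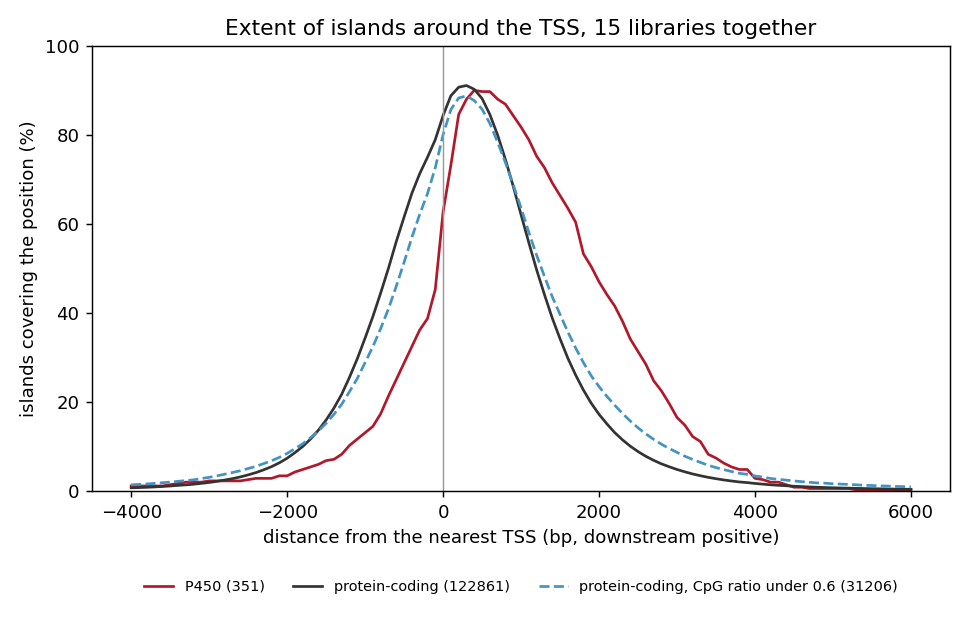
Share of islands that cover each position (y axis, %) by distance from the nearest TSS (x axis, bp, downstream positive), for the 351 islands of P450 genes, the 122861 of protein-coding genes and the 31206 of protein-coding genes with a CpG ratio under 0.6, in all 15 libraries together. At 500 bp upstream 28.8% of P450 islands cover the position against 61.6% of protein-coding ones, and at 2000 bp downstream 47.0% against 17.2%.

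The shift varied among the members. The median centre was 1426.5 bp downstream in Cyp2c29, 1574.5 bp in Cyp2c38, 1553.5 bp in Cyp2j5 and 1221.5 bp in Cyp2d26. It was 619.5 bp in Cyp2e1, whose islands held a TSS in 15 of 15 libraries. Among the CpG-rich members it was -10.5 bp, just upstream, in Cyp2r1, 277.5 bp in Cyp20a1, 175.5 bp in Cyp39a1 and 615.5 bp in Cyp4v3. The islands of Cyp39a1 also lay at a start of its neighbour Slc25a27 in 8 of 8 libraries, so the mark cannot be given to either gene alone. No other member shared an island with another protein-coding gene, and none with another P450 gene. In 8 of the 49 members the median centre lay upstream. It lay at -936.5 bp in Cyp2d9, marked in 6 libraries, at -691.5 bp in Cyp2f2, marked in 3, and at -2908.5 bp in Cyp4f37, none of whose islands in 5 libraries reached its start.

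The number of marked P450 genes was 25, 23 and 21 in the 3 SD libraries, 19, 33 and 41 in CR, 36, 31 and 26 in HF, 15, 20 and 11 in YD and 17, 22 and 11 in RD. The mean was 23.0 ± 2.0 (SD, n = 3) under SD, 31.0 ± 11.1 under CR, 31.0 ± 5.0 under HF, 15.3 ± 4.51 under YD and 16.7 ± 5.51 under RD, where the value after each mean is the SD. CR_3 was the highest and YD_3 and RD_3 the lowest, and RD_2 overlapped with SD. The share of marked P450 genes stood below that of all protein-coding genes in 15 of 15 libraries. The ratio of the shares ran from 0.421 in RD_3 to 0.904 in CR_3, with means of 0.634 ± 0.126 in the 6 corn libraries and 0.670 ± 0.114 in the 9 others. Without CR_3 the CR mean was 26.0 marked genes. With the same number of highest-scoring islands in every list the means were 17.7 in SD, 20.7 in CR, 16 in HF, 13 for YD and 11 for RD. Among libraries named ChIP the mean was 15.8 ± 5.07 in 5 corn libraries and 29.2 ± 8.79 in 5 others, and the PATChIP form holds only 1 corn library, with 17 marked genes.

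**Figure D3:**
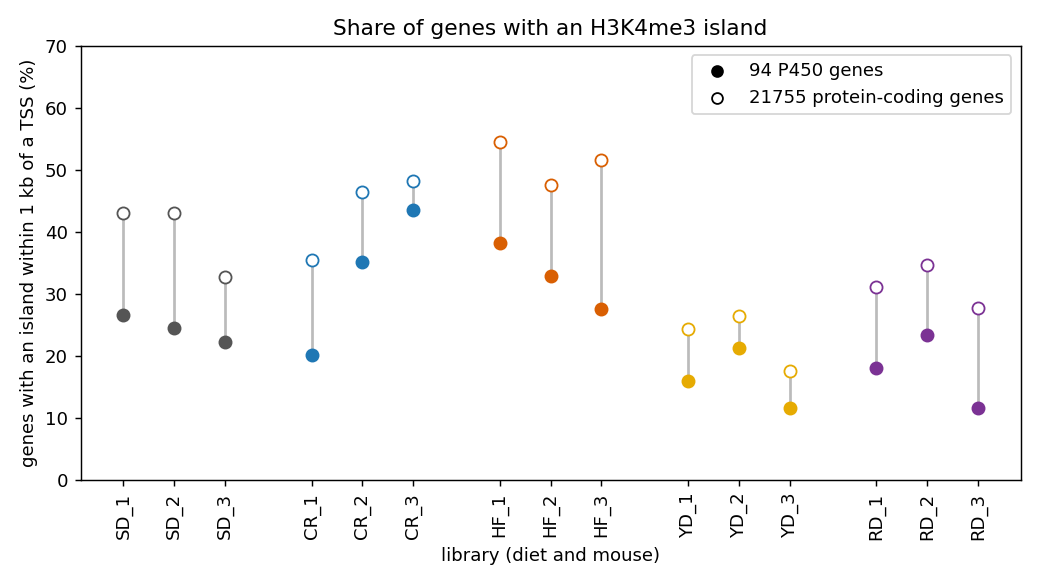
Share of genes with an island within 1 kb of a TSS (y axis, %) in each library (x axis, by diet and mouse), with filled points for the 94 P450 genes and open points for the 21755 protein-coding genes. The filled point lies below the open one in all 15 libraries, from 11.7% against 17.5% in YD_3 to 43.6% against 48.2% in CR_3.

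The islands of P450 genes were wider than those of other genes in most libraries and mostly did not rank higher. The median percentile of marked P450 genes ran from 45.8 in HF_3 to 83.9 in CR_3 and was above that of marked protein-coding genes in 4 of 15 libraries. The median width of their islands was 2400 bp over the 15 libraries, against 2000 bp in protein-coding genes, and it was the larger in 12 libraries, equal in 1 and smaller in 2. By diet the mean of the median width was 2333 ± 306 bp under SD, 2200 ± 346 bp under CR, 2367 ± 153 bp under HF, 2267 ± 987 bp under YD and 2300 ± 755 bp under RD. The diets differed by less than the spread within YD and RD. The 8 members widest by their median over all libraries were Cyp2c38 and Cyp2j5 at 3200 bp, Cyp2d22 at 2800 bp, Cyp2c29, Cyp2d26 and Cyp4a14 at 2600 bp and Cyp2e1 and Cyp3a25 at 2400 bp. Single islands of these 8 ran from 600 bp, for Cyp2d22 in SD_2 and Cyp4a14 in HF_1, to 6200 bp, for Cyp2d22 in HF_3. All 8 belong to families CYP2, CYP3 and CYP4, and none has a CpG-rich start.

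**Figure D4:**
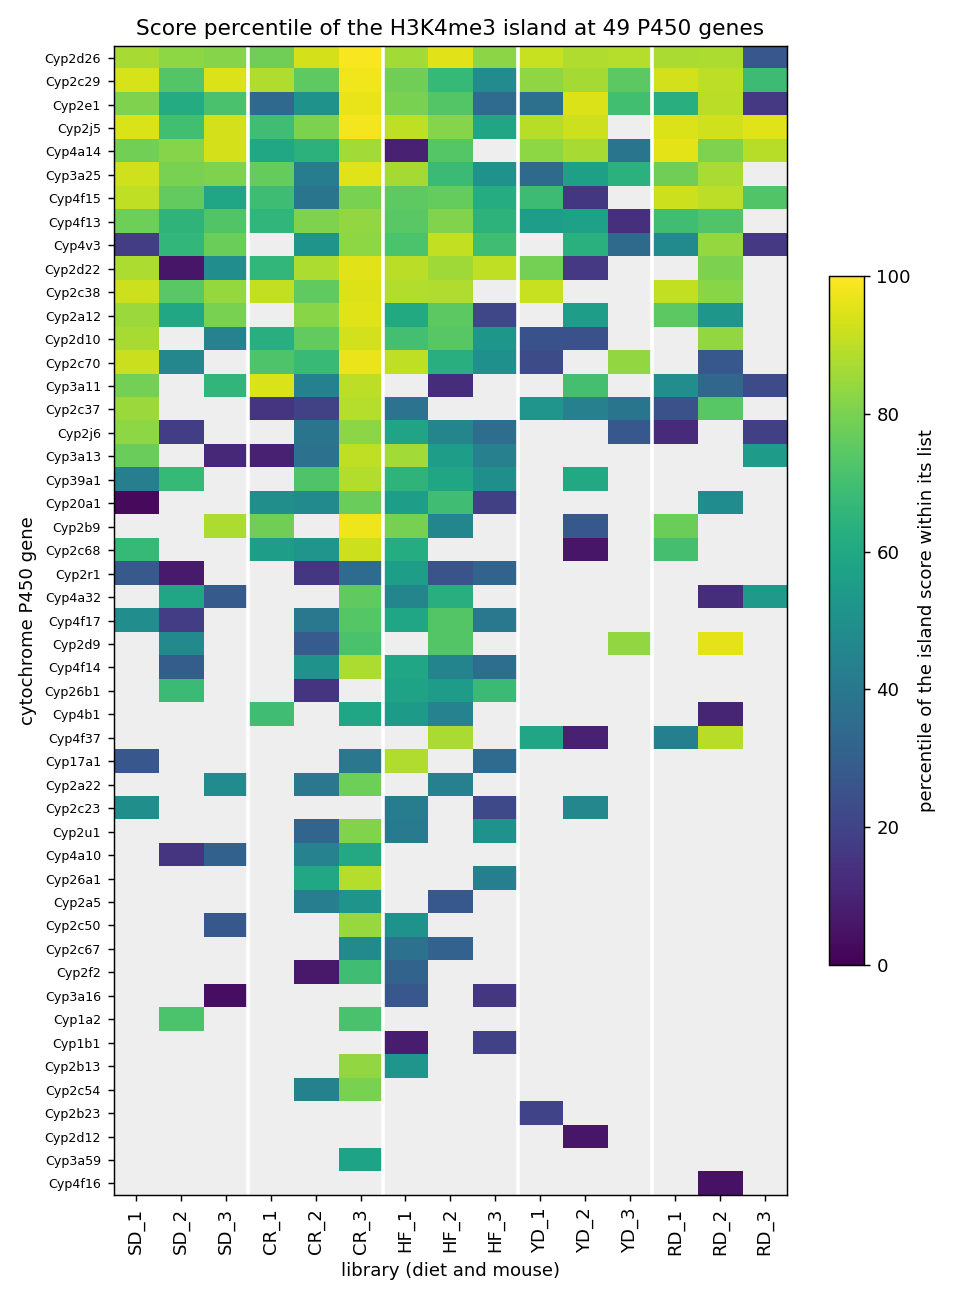
Percentile of the island score within its list (colour, 0 to 100) for the 49 P450 genes with an island in at least 1 library (rows, by the number of libraries and the median percentile) in each library (columns, by diet and mouse); grey means no island. The upper 9 rows are marked in 13 to 15 libraries. The rows of Cyp2r1, Cyp4f17, Cyp4f14 and Cyp26b1 are grey in all 6 corn libraries, as are others marked in few libraries, such as Cyp1a2, Cyp17a1, Cyp2u1 and Cyp4a10.

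The xenobiotic families come first. In family CYP1, whose genes are switched on by the aryl hydrocarbon receptor, Cyp1a1 had no island in any library. Cyp1a2, the main caffeine oxidase of liver, was marked only in SD_2, at a percentile of 71.6, and in CR_3, at 71.2. Cyp1b1 was marked in HF_1 at 7.97 and in HF_3 at 19.5. In the cluster of CYP2A, CYP2B and CYP2F on chromosome 7, 7 of 13 annotated list members were marked somewhere. Cyp2a12, named after its values were seen, led them with 11 libraries. Cyp2b10, the classical target of the receptor CAR, had no island, and Cyp2f2, a naphthalene oxidase, was marked only in CR_2 at 6.97, in CR_3 at 69.4 and in HF_1 at 31.7.

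The CYP2C cluster, with 15 genes at chr19:39007019-44029208 in mm10, held 9 marked genes and 4 that were marked in at least 8 libraries. Between 1 and 8 of its genes were marked per library. Cyp2c29 stood at 93.9, 73.2 and 94.5 under SD, 88.1, 75.2 and 97.9 under CR, 78.4, 67.2 and 48.1 under HF, 83.6, 86.7 and 74.8 under YD and 93.2, 89.9 and 68.6 under RD. Its HF values were low but overlapped with those of the other diets. Cyp2c38, an arachidonic acid epoxygenase and the widest of the members together with Cyp2j5, had a median width of 3200 bp over the 15 libraries and widths up to 5400 bp, in CR_3. It was marked at 74.3 to 94.6 in all SD and CR libraries and had no island in HF_3, YD_2, YD_3 and RD_3. Cyp2c39, Cyp2c40, Cyp2c55, Cyp2c65, Cyp2c66 and Cyp2c69 had no island.

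The CYP2D cluster, 8 genes on chromosome 15, held 5 marked genes. Cyp2d26 had the highest percentile of all members in 5 of 15 libraries, reached island 370 of 33752 by score in CR_3, and fell out of its range of 78.1 to 98.9 only in RD_3, at 27.2. Cyp2d22 (chr15:82370527-82380260, minus strand), often taken as the counterpart of human CYP2D6, stood at 87.7, 5.95 and 48.8 under SD, 66.3, 87.7 and 95.6 under CR, 89.6, 85.9 and 90.3 under HF, 79.1, 16.5 and 0 under YD and 0, 80.1 and 0 under RD. HF was uniform at 88.6 ± 2.37 (SD, n = 3), and SD, YD and RD each covered a wide range. Its island was 6200 bp wide in HF_3. Cyp2d11, Cyp2d34 and Cyp2d40 had no island.

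Cyp2e1 stood at 80.8, 61.3 and 71.2 under SD, 34.3, 51.3 and 96.7 under CR, 79.8, 73.3 and 34.8 under HF, 37.0, 94.9 and 69.7 under YD and 63.1, 89.5 and 16.6 under RD. The diets overlapped throughout, with a difference between corn and other diets of -3.05 percentile points. Cyp2j5, an epoxygenase of arachidonic acid, was marked in 14 libraries at 58.6 to 98.1 and had no island in YD_3. Its neighbour Cyp2j6 was marked in 10, and the other 6 genes of the CYP2J cluster on chromosome 4 in none.

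In the CYP3A cluster on chromosome 5, whose enzymes oxidize most drugs and steroids, 5 of 9 genes were marked. Cyp3a25 led with 14 libraries and a median width of 2400 bp, and was without an island in RD_3. Cyp3a11, the main target of the pregnane X receptor, stood at 79.1, 0 and 65.8 under SD, 94.4, 44.0 and 90.1 under CR, 0, 13.1 and 0 under HF, 0, 70.5 and 0 under YD and 49.1, 32.9 and 23.4 under RD. The difference of HF from the other diets was -41.4 percentile points with an unadjusted p of 0.0879 in the exact permutation test, and an adjusted p of 0.315.

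In family CYP4, the fatty acid omega-hydroxylases, 11 of 20 list members were marked, with 3 to 9 per library. Cyp4a14 and Cyp4a10, both targets of PPAR-alpha, stand close together on chromosome 4 and differed in breadth. Cyp4a14 (chr4:115486200-115496142, minus strand) was marked in 14 libraries, at 78.5, 81.6 and 93.7 under SD, 59.6, 64.4 and 86.2 under CR, 9.11, 73.7 and 0 under HF, 83.0, 87.0 and 38.9 under YD and 96.0, 80.5 and 89.1 under RD. HF_1 and HF_3 lay below all 12 libraries of the other diets, and HF_2 lay among them. Cyp4a10 was marked only in SD_2 at 15.4, SD_3 at 31.1, CR_2 at 44.4 and CR_3 at 60.3. Cyp4a12a, Cyp4a12b, Cyp4a29, Cyp4a30b and Cyp4a31 had no island.

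Of the CYP4F genes, Cyp4f13 and Cyp4f15 were marked in 14 libraries each. Cyp4f13 (chr17:32924688-32947402, minus strand) stood at 77.9, 64.9 and 72.9 under SD, 65.9, 80.6 and 83.7 under CR, 74.5, 81.0 and 64.7 under HF, 55.7, 57.1 and 13.6 under YD and 69.5, 72.7 and 0 under RD. All YD values lay below all SD, CR and HF values, and RD_1 and RD_2 lay among them. Cyp4f15 stood at 68.7, 16.1 and 0 in YD, against 38.8 to 92.5 in the other 12 libraries. Cyp4f17 (chr17:32506050-32530143, plus strand) and Cyp4f14 had no island in any corn library. Cyp4v3 was marked in 13 libraries with a median width of 1600 bp, and stood at 71.5, 90.9 and 69.5 in HF.

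Of the steroid hormone genes 1 of 6 was marked in any library, and of the vitamin D and retinoic acid genes 3 of 6, against 49 of all 94 P450 genes. These 3 were Cyp2r1, Cyp26b1 and Cyp26a1, the last marked in 3 libraries. Of the 6 steroid hormone genes, Cyp11a1, Cyp11b1, Cyp11b2, Cyp19a1 and Cyp21a1, which act in adrenal and gonad, had no island in any library. Cyp17a1, the steroid 17-hydroxylase, was marked in 4 libraries, SD_1 at 26.97, CR_3 at 39.6, HF_1 at 88.0 and HF_3 at 35.0. Cyp2r1 (chr7:114549682-114562972, minus strand) stood at 27.8 and 7.19 in SD_1 and SD_2, 15.6 and 35.1 in CR_2 and CR_3 and 56.2, 25.5 and 31.9 in HF, and had no island in SD_3, CR_1 and the 6 corn libraries. Cyp26b1, which breaks down retinoic acid, was marked at 57.5, 55.2 and 68.4 in HF, in SD_2 at 68.1 and in CR_2 at 14.9. Cyp24a1 and Cyp27b1, which inactivate and activate vitamin D in kidney, and Cyp26c1 had no island. Cyp39a1, an oxysterol hydroxylase, was marked at 65.0, 59.4 and 49.9 in HF and in 1 of 6 corn libraries, YD_2, at 60.7. Cyp2u1 was marked in 4 libraries of CR and HF, and Cyp20a1 in all CR and HF libraries, at 2.60 in SD_1 and at 48.8 in RD_2.

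Whether the corn diets set the P450 genes apart was tested gene by gene over the 15 libraries, with YD and RD against SD, CR and HF, by a two-sided exact permutation test with Benjamini-Hochberg adjustment over the 13044 genes marked in at least 1 library. No P450 gene of 49 passed in either direction, while 11.4% of genes passed as lower in corn and 0.0153% as higher. At an unadjusted p under 0.05, 10 P450 genes were lower, or 20.4%, and 39.4% of all genes were. No P450 gene was higher at that level, and 0.0997% of genes were. The P450 genes were lower in 41 of 49 cases, with a median difference of -17.7 percentile points, and all genes in 94.6% of cases, with -22.0. The background fell to 0 genes without any 1 of YD_1, YD_2 and YD_3, with the same number of highest-scoring islands in every list, with islands at or above the median score, with presence or absence, with rank among genes, and with permutation within the replicate number or the name form. No P450 gene passed under these settings either. Permutation within the replicate number or the name form leaves fewer arrangements and a higher floor of p, so the zeros there tell less. Most P450 genes thus lay in the direction of most genes, with a share under the unadjusted threshold that was below the background. Of the 49 P450 genes, 29 were marked in only 1 to 7 libraries, against 4322 of the 13044 genes. Genes marked in few libraries can less easily reach a low p in this test, so the shares are not on equal terms. This difference of shares was not tested.

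The smallest adjusted p of a P450 gene was 0.0567, that of Cyp4f13, with a mean difference of -29.3 percentile points (unadjusted p = 0.00759 in the exact permutation test). Cyp2r1 and Cyp4f17 were marked in 7 of 9 other libraries and in 0 of 6 corn libraries. They differed by -22.1 and -39.2 percentile points, each with an adjusted p of 0.0578 by the exact permutation test. Cyp2d22 (-43.8), Cyp2c70 (-41.9), Cyp2d10 (-39.98), Cyp39a1 (-39.3), Cyp3a13 (-36.5), Cyp4f14 (-34.2) and Cyp2j6 (-30.5) complete the 10, with adjusted p-values of 0.0921 to 0.113. In another setting the adjustment took in only genes marked in at least 3 libraries. There Cyp4f13 passed at an adjusted p of 0.0487 and Cyp2r1 and Cyp4f17 at 0.0497 by the exact permutation test. In that setting 2521 genes in all passed as lower. Cyp2r1 and Cyp4f17 met the filter only through SD, CR and HF, where they are high, so their passing adds no support. With single libraries left out, 4 P450 genes passed without SD_3, 3 without CR_1, 1 without RD_1 and 2 without RD_2. The shares of all genes that passed in these settings are not set beside these counts. The counts are therefore not read as particular to P450 genes. The sinusoidal endothelial marker counts given above moved with the same division of the diets, and their part was not tested.

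For HF against the other 4 diets no gene passed in either direction, so the background is 0% and 0%. The smallest p that 455 arrangements gave was 0.0044. At that floor a gene passes adjustment over 13044 genes only if many others reach it too, so the lack of calls tells little. At an unadjusted p under 0.05, 2 P450 genes of 49 were lower in HF, 4.08% against 0.069% or 9 of all 13044 genes. They were Cyp4a14, with a difference of -50.6 percentile points (exact permutation p = 0.0176, adjusted p = 0.247), and Cyp2c29, with -20.4 (p = 0.0352, adjusted p = 0.280). Neither passed the adjusted threshold. In HF_1, HF_2 and HF_3 the Kupffer markers were marked in 3, 0 and 1 of 6, the sinusoidal endothelial markers in 6, 2 and 4 of 6 and the stellate cell markers in 4, 1 and 2 of 6. Both HF libraries with low Cyp4a14 thus held more of these markers than HF_2. Outside HF, Kupffer markers were marked only in YD_3, 1 of 6. The part of these cells in the values was not tested. With labels permuted within the form of the library name the p-values were 0.06 and 0.1, and without HF_3 they were 0.0879 and 0.176. By width Cyp2c29 turned, with islands 283.3 bp wider in HF, while those of Cyp4a14 were 1550 bp narrower. The P450 genes higher in HF at that level were Cyp26b1 at 53.4 points, Cyp4f17 at 42.2 and Cyp2r1 at 30.7, or 6.12% against 15.1% of genes, with adjusted p-values of 0.233, 0.280 and 0.264. Over all P450 genes 16 of 49 were lower in HF, or 32.7%, against 8.16% of genes.

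**Figure D5:**
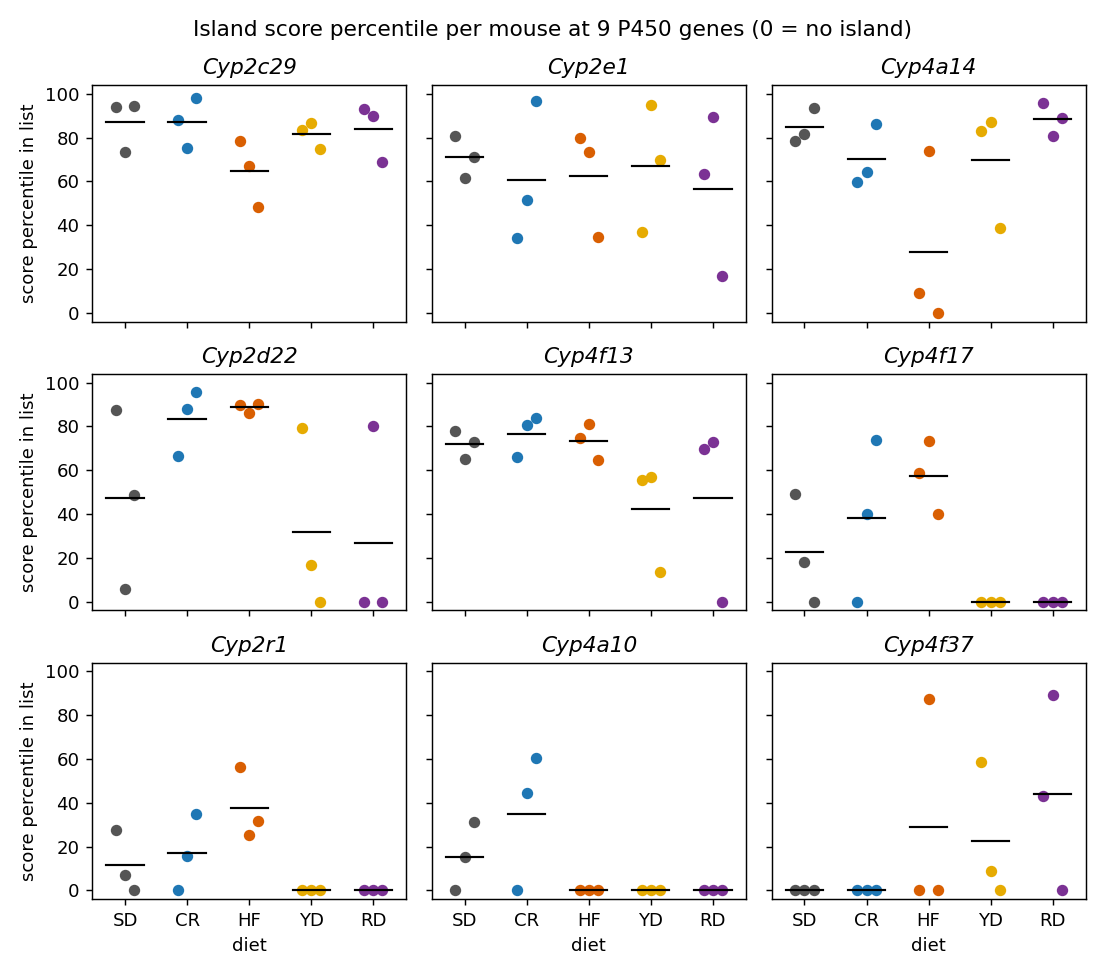
Percentile of the island score within its list (y axis, 0 where no island was listed) in each mouse (points) by diet (x axis) for 9 P450 genes, with the mean of 3 mice as a line. Cyp4a14 is at 0 and 9.11 in HF_3 and HF_1 against 38.9 or more in the other diets, Cyp4f17, Cyp2r1 and Cyp4a10 are at 0 in all 6 corn libraries, and Cyp4f37 is above 0 only in HF_2, YD_1, YD_2, RD_1 and RD_2.

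For YD against the other 4 diets no gene passed either, again 0% and 0% of genes. The 455 arrangements set the same floor of p here as for HF. Cyp4f15 was the only P450 gene under an unadjusted p of 0.05, lower by 45.2 percentile points in YD (a difference of -45.2, exact permutation p = 0.0176, adjusted p = 0.149), where 22.5% of genes were lower. No P450 gene was higher in YD at that level, and 0.046% of genes were.

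Pairs of diets were compared by counting genes that were marked in 2 or 3 mice under the first diet and in none under the second, or the reverse. These counts have no p, since 3 mice against 3 cannot give an exact p below 0.1, and the comparisons with SD share its 3 libraries. In YD against SD, Cyp4f37 was gained, where 0.0368% of protein-coding genes were, and Cyp2r1, Cyp3a13, Cyp4a10, Cyp4a32 and Cyp4f17 were lost, 5.32% of members against 9.46%. In RD against SD, Cyp4f37 was again gained, against 0.221% of genes, and Cyp2r1, Cyp39a1, Cyp4a10 and Cyp4f17 were lost, 4.26% against 3.92%. Cyp4f37, chosen here after its values were seen, stood at 58.6 and 9.09 in YD_1 and YD_2, 43.2 and 89.4 in RD_1 and RD_2 and 87.4 in HF_2, and had no island in SD and CR. Its gain is absent when the TSS must lie inside the island. With the same number of islands in every list the genes gained and lost together fell from 6 to 1 in YD and from 5 to 0 in RD. No member was lost from all 3 SD mice, so each lost gene was marked in exactly 2 of them. By the rule it drops out when either of these 2 libraries is left out. Without SD_2, 1 gene was lost in YD and 0 in RD. The shares of all genes are not set beside the counts with equal lists or with a library left out. Those counts are not read as particular to P450 genes.

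In HF against SD the genes gained were Cyp1b1, Cyp2c67, Cyp2u1 and Cyp4b1, 4.26% of members against 4.69% of genes, and Cyp4a10 was lost, where 0.0735% of genes were. Cyp4a10 had been marked in 2 SD libraries at 31.1 or less. In CR against SD the genes gained were Cyp26a1, Cyp2a5, Cyp2c54, Cyp2f2, Cyp2u1 and Cyp4b1, 6.38% of members against 1.79%, and none was lost, against 0.336%. Each of the 6 was marked in exactly 2 of 3 CR mice, so by the rule it drops out when either is left out. All 6 had an island in CR_3, the longest list, and 0 were gained without CR_3 and 1 without CR_2. The shares of all genes gained without these libraries are not set beside these counts. Cyp26a1, a retinoic acid hydroxylase, stood at 59.6 and 89.0 in CR_2 and CR_3, and Cyp2u1 at 32.6 and 80.9. Members named in these counts and outside the fixed rule were chosen after their values were seen.

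In RD against YD only Cyp4a32 was gained, against 3.81% of genes, at 12.96 and 53.6 in RD_2 and RD_3, and none was lost, against 0.244%. In HF against YD 13 members were gained, 13.8% against 18.5% of genes, and none was lost, against 0.023%. The HF lists held 13499 to 21310 islands and the YD lists 7825 to 10906, and with the same number of highest-scoring islands in every list 1 member was gained and 1 lost. The shares of all genes in that setting are not set beside these counts, which are not read as particular to P450 genes. Of the 13, 6 were marked in 3 of 3 HF mice and in none of YD, 6.38% of members against 13.2% of genes, and none was lost so, against 0.00919%. By that rule no member was gained or lost in the other pairs. The shares of genes gained and lost were 0.0046% and 3.5% in YD against SD, 0.0276% and 1.05% in RD against SD, 1.82% and 0.00919% in HF against SD, 0.313% and 0.0184% in CR against SD, and 1.09% and 0.0276% in RD against YD. The 6 members were Cyp20a1 at 55.7, 69.4 and 18.8 in HF, Cyp26b1, Cyp2r1, Cyp3a13 at 85.9, 56.2 and 43.6, Cyp4f14 at 58.9, 45.1 and 36.0, and Cyp4f17 at 58.7, 73.2 and 39.95. Of these 6, Cyp3a13 was marked in RD_3 at 55.2, and Cyp20a1 in RD_2. The sinusoidal endothelial markers were marked in 2 to 6 of 6 in HF and in 0 of 6 in all YD libraries, and their part in this count was not tested.

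The partners of the P450 enzymes were marked more regularly than the enzymes. All 7 genes of the list of electron donors and heme supply were marked, 5 to 7 of them per library, and 4 in all 15. The CpG ratio reached 0.6 in 4 of these 7 and in 5 of the 10 transcription factors below, against 8 of 94 P450 genes. Of CpG-rich protein-coding genes 66.3% were marked in at least 8 libraries, as were 6 of the 7 partners. The part of CpG content in this contrast was not tested. Por, the NADPH-cytochrome P450 reductase, stood between 46.9, in RD_3, and 96.95, in CR_3, and Cyb5a, cytochrome b5, between 93.6 and 99.3. None of the 7 passed the test of corn against the other diets, and 7 of 7 were lower, as were 94.6% of all genes tested. Alas1, the first enzyme of heme synthesis, differed by -20.9 percentile points (exact permutation p = 0.0248, adjusted p = 0.0898), and Cyb5b by -37.0 (adjusted p = 0.0578). Of the 10 transcription factors that switch P450 genes on, all were marked in at least 8 libraries and 5 in all 15. Rxra, the partner of CAR, PXR and PPAR-alpha, was the only one of the 10 called, where 11.4% of genes were called lower, and it was lower in corn by a difference of -6.44 percentile points (exact permutation p = 0.0004, adjusted p = 0.0276), with 85.5 to 96.7 in corn and 97.3 to 99.3 in the other diets. Its ranges did not overlap. No gene passed with the same number of islands in every list, nor without any 1 YD library, so this call does not hold there. Ppara stood at 88.3 to 99.4 in all libraries, and Hnf4a at 77.02 to 99.5. No factor passed in HF against the other diets.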

How the data were processed

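H3K4me3 was measured by PAT-ChIP-seq, chromatin immunoprecipitation from formalin-fixed, paraffin-embedded liver, in 15 mice with 1 library each. By the study's methods, the authors mapped 50-bp single-end reads with BWA against mm10, kept reads with a mapping quality of at least 1, removed duplicates and called islands in each library with SICER2 (window 200 bp, gap 400 bp, fragment size 200 bp, FDR under 0.05). The deposited score of an island is the sum of minus natural log Poisson probabilities over its windows. It is not scaled between libraries and served only as a percentile within its list. Each deposited list comes from 1 library, and the replicates that the authors merged for other steps were not used here.

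The members and gene lists were chosen with earlier results of these data known. Diets were taken from the labels. TSSs of all transcripts of GENCODE M21 were used, and a gene took its highest-scoring island within 1 kb of a TSS. Percentiles were compared by two-sided exact permutation tests of the difference of means over 5005 (6 libraries against 9) or 455 (3 against 12) arrangements, with Benjamini-Hochberg adjustment over 13044 genes and a threshold of 0.05. Genes named were those called, those marked in 3 of 3 mice of a diet and 0 of another, the 8 widest by median width, fixed landmarks and the steroid hormone genes, and any other member was named after its values were seen. CpG ratios and unique 50-base words were computed on GRCm38.p6, and promoter sequences are those of RefSeq. Read totals were recovered from steps in the scores, within 0.000503 of a whole number with an effective genome fraction of 0.74. The lists give no read count per island, so no counting interval is given. Functions were tested on simulated data. Scripts ran in Python 3.11.15 with scipy 1.17.1, numpy 2.4.6 and pandas 2.3.3, and figures were drawn with matplotlib 3.10.9.

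The alternatives were TSSs within 3 kb or inside the island, the same number of highest-scoring islands per list (7825), islands at or above the median score, TSSs of coding transcripts, at least 200 bp of the window covered, symbols ending in digits (89 genes), island width, presence or absence, rank among genes, permutation within the replicate number or the form of the library name, genes marked in at least 3 libraries, all 3 mice and the omission of each library. Leaving out CR_3 and RD_2 together was chosen after the data were seen. Mice of separate diets with the same number are different animals. Their deviations correlated between -0.180 and 0.0839 over 30 pairs, and 0 pairs passed 0.1, so the numbers were not taken to pair the mice. The result of 1 further list of cell type markers is not reported here.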

Additional observations from a re-analysis of the deposited data

Results flagged for a closer look

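Score percentiles of the marked P450 genes were searched for single libraries far from the rest, in the 6 corn libraries and in the 9 of SD, CR and HF. In 22 of 82 groups tested, 1 library lay farther from its nearest neighbour than Dixon's 95% value allows. For normal values chance gives about 5%. These percentiles are bounded and hold zeros for missing islands, so their chance rate is not known and no excess is read from the count. Diets of 3 mice are too small for this rule. Of the 22, 10 were the only library of their group with an island, so the zeros of the others set the gap.

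Among regularly marked genes, a corn library was low for Cyp2d26, at 27.2 in RD_3 with the nearest at 87.2, for Cyp2j5, at 0 in YD_3 with the nearest at 89.3, and for Cyp4a14, at 38.9 in YD_3 with the nearest at 80.5. Both libraries had the fewest marked P450 genes, 11 each. Cyp2c38 was at 0 in HF_3, with the nearest of SD, CR and HF at 74.3. A corn library was high for Cyp2c70 (83.8 in YD_3), Cyp2d10 (83.9 in RD_2), Cyp2b9 (77.4 in RD_1), Cyp2c68 (70.7 in RD_1) and Cyp4a32 (53.6 in RD_3). In SD, CR and HF, Cyp17a1 was high at 88.0 in HF_1, Cyp2f2 at 69.4 in CR_3 and Cyp1b1 at 19.5 in HF_3.

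The only island among the corn libraries was that of Cyp3a13 (55.2, RD_3), Cyp20a1 (48.8, RD_2), Cyp39a1 (60.7, YD_2), Cyp4b1 (10.3, RD_2), Cyp2c23 (46.4, YD_2), Cyp2b23 (20.1, YD_1), Cyp2d12 (6.22, YD_2) and Cyp4f16 (4.88, RD_2). The only island in SD, CR and HF was that of Cyp4f37 (87.4, HF_2) and Cyp3a59 (57.9, CR_3).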

How the results depend on the processing

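No P450 gene passed for HF or YD against the other diets under any alternative tried. The 455 arrangements of these tests set a floor of p that few genes could overcome after adjustment. Leaving out a library or permuting within a block leaves fewer arrangements still. These zeros therefore do not show that the P450 genes were unchanged. For corn, 3 P450 genes passed when only genes marked in at least 3 libraries were adjusted for, and 0 to 4 with 1 library left out, 0 under the others. Of the 3, Cyp2r1 and Cyp4f17 met that filter only through SD, CR and HF. No share of all genes is set beside the 0 to 4, so this range is not read as particular to P450 genes. Permutation within a block also raises the floor of p for corn, so zeros under it tell less. With the replicate block 0 P450 genes passed, 7 were lower at an unadjusted p under 0.05 against 10 without it, and the genes called as lower went from 1489 to 0. That number was also 0 with the same number of highest-scoring islands, islands at or above the median score, presence or absence, rank among genes and permutation within the name form, 892 with the TSS inside the island, 2521 with genes in at least 3 libraries, and 416 without CR_3 and RD_2, an alternative chosen after seeing the data. Cyp2c29 in HF turned to 12.5 percentile points with the TSS inside the island and to 283.3 bp by width. The cause was not tested. Genes gained and lost together moved with the same number of islands from 6 to 1 in YD against SD, 5 to 0 in RD against SD, 5 to 2 in HF against SD, 1 to 2 in RD against YD and 13 to 2 in HF against YD. With islands at or above the median score they were 0, 1, 3, 0 and 5 in that order, and 3 of 6 in CR against SD. With all 3 mice required they were 0 in each pair except HF against YD, with 6. In RD against YD they were 2 with 200 bp of the window covered, and in HF against YD 8 with the TSS inside. With 1 library left out they ranged from 2 to 8 in YD against SD (2 without SD_2, 3 without SD_3), 1 to 7 in RD against SD (3 without SD_1, 1 without SD_2), 1 to 8 in HF against SD (8 without SD_1, 1 without HF_1, 3 without HF_3), 1 to 9 in CR against SD (1 without CR_2 and without CR_3), 0 to 3 in RD against YD and 7 to 17 in HF against YD (7 without HF_1). The rule still asked for 2 marked mice when a library was left out, so a gene marked in exactly 2 mice then dropped out. No share of all genes is set beside the gained and lost counts of the alternatives. Their changes are therefore not read as particular to P450 genes. The mean number of marked P450 genes per library, 23.4, fell to 14.7 with the TSS inside the island, 15.7 with the same number of islands and 15.7 with islands at or above the median score, and was 22.1 to 24.6 under the other settings. The precision is limited by 3 mice per diet and by an island being present or not.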
